A study of Rattus norvegicus with 8 samples.

Results

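A set of 9 genes of myelin and of the oligodendrocyte was followed after injection of retinoic acid (RA) into the brain of the rat: *Mbp*, *Mog*, *Mag*, *Mobp*, *Cnp*, *Cldn11*, *Opalin*, *Ugt8* and *Olig1*. They were taken by name, with no threshold on a measured value, but with earlier results of these data known. These 9 genes are part of 15159 named genes with a probe on the array, and each gene was represented by its brightest probe. All 9 were well above background in both channels on each of the 8 arrays, so none was lost to a filter on low signals. The 2 groups compared were male F344 rats (strain label F344N), which were kept in short photoperiod (SD) and received 5 μl into the third ventricle. One group was given all-trans RA, labelled as 1e-05 M, and the other the vehicle, labelled as saline, whereas the methods of the study name a higher RA concentration and DMSO in saline. Hypothalamic tissue blocks that include the arcuate nuclei were collected 24 hrs afterwards, and RNA of 4 RA and 4 vehicle rats was hybridised with dye-swap to 8 two-colour arrays on 1 slide. Arrays 1, 3, 6 and 8 carried RA in Cy5, and arrays 2, 4, 5 and 7 carried RA in Cy3. The ages of the rats and the arrays that share an RNA sample are not given in the sources used here. A log2 ratio below 0 means a lower level after RA than after vehicle throughout.

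Oligodendrocytes wrap axons of the central nervous system in myelin, a stack of compacted membrane that is rich in galactolipids. The compact layers are held together by proteins such as myelin basic protein, the outer and innermost layers carry surface proteins such as MOG and MAG, and a tight junction seals the sheath. The genes are switched on as precursor cells mature under transcription factors of the OLIG and SOX families, and RA is a ligand of nuclear receptors that act in neural differentiation. The hypothalamus holds myelinated tracts beside its neurones, astrocytes and ventricular cells. In a tissue block fewer oligodendrocytes and less RNA per oligodendrocyte cannot be told apart.

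To show what lies upstream of these genes, the bases before the transcription start were read from the RefSeq promoter table of GRCr8, which held an entry for 7 of the 9 genes. They are printed for *Mobp*, whose mean ratio was furthest below 0, for *Ugt8*, which was below 0 on every array, and for *Cldn11*, whose mean ratio was near 0. Only bases outside the annotated gene are shown, from 5′ to 3′ on the strand of the gene, and matches to the SOX core letters ACAAAG or ACAATG on either strand are in capitals.
Mobp: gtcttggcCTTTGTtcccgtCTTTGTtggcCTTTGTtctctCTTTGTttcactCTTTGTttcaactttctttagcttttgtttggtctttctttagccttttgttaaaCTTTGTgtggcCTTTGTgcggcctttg
Ugt8: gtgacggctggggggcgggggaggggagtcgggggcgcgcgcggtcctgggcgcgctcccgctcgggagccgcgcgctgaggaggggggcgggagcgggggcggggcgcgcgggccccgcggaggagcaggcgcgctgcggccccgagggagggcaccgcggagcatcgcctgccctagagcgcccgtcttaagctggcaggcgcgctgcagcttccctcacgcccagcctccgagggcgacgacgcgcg
Cldn11: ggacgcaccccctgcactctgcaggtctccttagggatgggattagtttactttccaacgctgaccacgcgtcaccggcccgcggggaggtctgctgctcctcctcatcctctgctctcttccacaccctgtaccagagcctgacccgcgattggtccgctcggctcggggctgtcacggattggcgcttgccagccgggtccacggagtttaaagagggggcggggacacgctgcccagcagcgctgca
The *Mobp* stretch of 135 bases lies at chr8:128746982-128747116 on the plus strand and holds 7 matches. All 7 read CTTTGT and lie in a run of similar short units, so they are not a count of separate elements. The *Ugt8* stretch at chr2:217007168-217007417 and the *Cldn11* stretch at chr2:114149540-114149789, both on the minus strand and of 250 bases, hold 0. Their GC content was 40.7% in *Mobp*, 81.2% in *Ugt8* and 64.8% in *Cldn11*. In the full window of 250 bases *Mobp* had 8 matches, and 0.00598% of the 33469 promoters in the table had as many, whereas 25.3% had at least 1. *Opalin* had 3 matches in its window, and 0.633% of promoters had at least that number. *Mag* and *Cnp* had 1 match each. *Mbp* had 2 starts in the table, 1 with 0 matches and 1 with 3. The windows of *Mobp*, *Opalin* and *Mag* overlap the annotated gene. Of the 250 bases, 135 lie outside it in *Mobp*, 161 in *Mag* and 17 in *Opalin*, so most of the *Opalin* window lies within the gene. The overlap was not determined for *Mbp*, whose window with 3 matches lies downstream of its other start. The E-box CAGCTG was found in 12% of promoters and once each in the windows of *Opalin*, of *Cnp* and of the *Mbp* start with 3 matches. The nuclear receptor half-site AGGTCA was found in 14.1% of promoters and in no window of these 7 genes, which says only that these letters are not there. A match of letters is a description and not a site of binding.

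After RA, 8 of the 9 genes had a mean log2 ratio below 0, and the median of the 9 was -0.19, against -0.0047 for all named genes, of which 52.4% were below 0. *Mobp* was 17.5% lower than in vehicle, *Opalin* 16.9%, *Mbp* 16.1%, *Ugt8* 15.7%, *Mog* 12.2% and *Olig1* 9.61%. *Cnp* and *Mag* were 6.35% and 4.83% lower, and *Cldn11* had a mean close to 0. Of the 72 values that 9 genes have on 8 arrays, 59 were below 0. *Opalin* was the only one of the 9 to pass the threshold of the study's methods, an unadjusted *p* under 0.01 in limma, and it fell. Among all probes 0.645% passed this threshold with a lower level after RA, and among named genes 0.792%. At an unadjusted *p* under 0.05, 6 of the 9 were lower (*Opalin*, *Mbp*, *Ugt8*, *Olig1*, *Mobp* and *Mog*), against 4.57% of named genes. *Opalin* and *Ugt8* were below 0 on all 8 arrays, as were 1.8% of named genes. No probe of the array had an adjusted *p* under 0.05 (0 in limma, which is 0% of the probes), the lowest adjusted *p* being 0.222, and 988 had an unadjusted *p* under 0.01. The genes belong to 1 cell type and are not independent of each other, so these shares are given as a description.

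**Figure D1:**
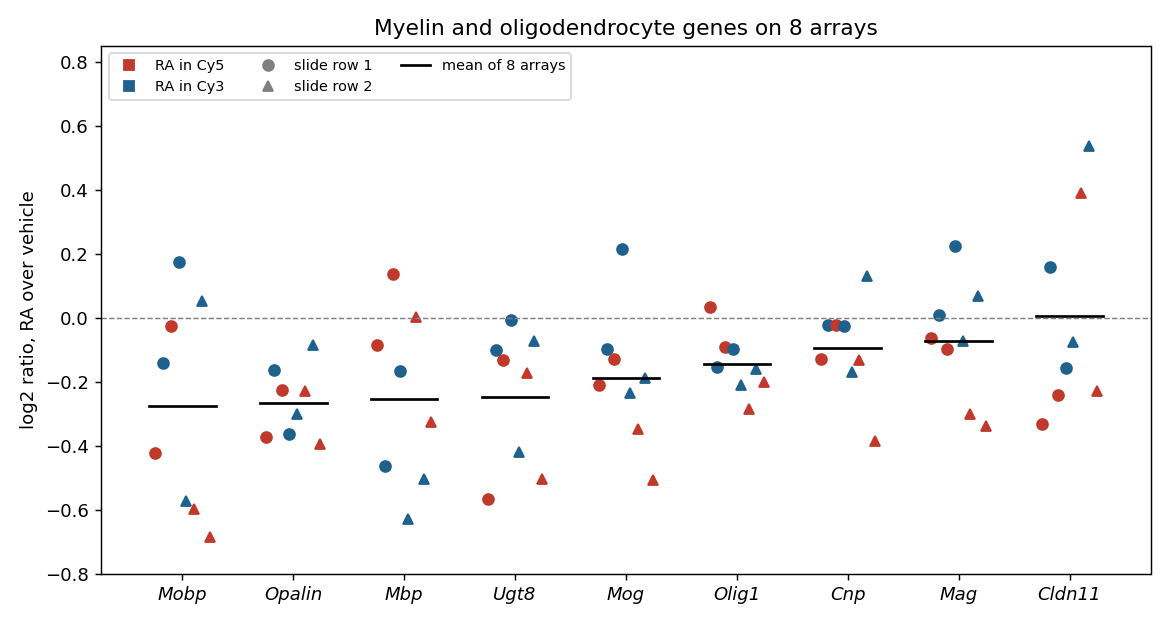
Log2 ratio of RA over vehicle for each of the 9 genes on each of the 8 arrays (points) with the mean of the 8 arrays (line). Colour gives the dye that carried RA and shape the row of the slide, and all 8 points of *Opalin* and *Ugt8* lie below 0 whereas those of *Cldn11* spread from -0.33 to 0.54.

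*Mbp* encodes myelin basic protein, which binds the cytoplasmic faces of the membrane together. Its log2 ratios on arrays 1 to 8 were -0.085, -0.46, 0.14, -0.17, -0.63, 0.0027, -0.51 and -0.32. On 6 arrays it lay below 0, and the lowest values were on arrays 5, 7 and 2, all with RA in Cy3. The log2 fold change was -0.25 with a standard error of 0.074 and a 95% interval of -0.43 to -0.079, with an adjusted *p* of 0.314 (unadjusted *p* = 0.0106, limma). *Mobp* encodes a small basic protein of the same compact layers. Its log2 ratios on arrays 1 to 8 were -0.42, -0.14, -0.027, 0.17, -0.57, -0.60, 0.052 and -0.68. Arrays 8, 6, 5 and 1 were low and the others lay close to or above 0. The log2 fold change of *Mobp* was -0.28 with a standard error of 0.10, an interval of -0.52 to -0.039, and an adjusted *p* of 0.391 (unadjusted *p* = 0.0282, limma).

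*Opalin* encodes a glycosylated membrane protein that is particular to oligodendrocytes of the central nervous system. Its log2 ratios on arrays 1 to 8 were -0.37, -0.16, -0.22, -0.36, -0.30, -0.23, -0.086 and -0.39. All 8 lay below 0 in both dye orders and in both rows of the slide. The log2 fold change was -0.27 with a standard error of 0.054 and a 95% interval of -0.39 to -0.14, with an adjusted *p* of 0.246 (unadjusted *p* = 0.00157, limma). This unadjusted *p* is the largest over the 24 ways in which the arrays can be coupled across the dye orders, so all were under 0.01. *Mog* encodes a protein on the outermost layer of the sheath, and its log2 ratios on arrays 1 to 8 were -0.21, -0.099, -0.13, 0.21, -0.24, -0.35, -0.19 and -0.51. Array 4 was the only array above 0 and array 8 the lowest. Its log2 fold change was -0.19 with a standard error of 0.071 and an adjusted *p* of 0.406 (unadjusted *p* = 0.0325, limma). *Mag* encodes an adhesion protein of the layer next to the axon, with log2 ratios on arrays 1 to 8 of -0.063, 0.0094, -0.098, 0.22, -0.073, -0.30, 0.069 and -0.34. On 5 arrays it lay below 0, and the low values were on arrays 8 and 6. Its log2 fold change of -0.071 had an interval of -0.21 to 0.063, and the adjusted *p* in limma was 0.743.

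*Cnp* encodes an enzyme of the cytoplasmic channels of the sheath. Its log2 ratios on arrays 1 to 8 were -0.13, -0.023, -0.021, -0.025, -0.17, -0.13, 0.13 and -0.39. On 7 arrays it lay below 0, most of them close to it, and array 8 was the lowest. The log2 fold change of *Cnp* was -0.095 with an interval of -0.23 to 0.044 and an adjusted *p* of 0.640 in limma. *Ugt8* encodes the transferase that makes galactosylceramide, the main galactolipid of myelin. Its log2 ratios on arrays 1 to 8 were -0.57, -0.10, -0.13, -0.0083, -0.42, -0.17, -0.072 and -0.50. All 8 lay below 0, with arrays 1, 8 and 5 well under the others. The log2 fold change was -0.25 with a standard error of 0.074, an interval of -0.42 to -0.074 and an adjusted *p* of 0.320 (unadjusted *p* = 0.0115, limma). *Cldn11* encodes the claudin of the tight junctions between the layers of the sheath, and its log2 ratios on arrays 1 to 8 were -0.33, 0.16, -0.24, -0.16, -0.077, 0.39, 0.54 and -0.23. Arrays 6 and 7 were high and array 2 was above 0, whereas the others lay below 0. Its log2 fold change of 0.0062 had an interval of -0.25 to 0.27, and the adjusted *p* in limma was 0.994, so that a change in either direction was not detectable at this precision. *Olig1* encodes a transcription factor of the oligodendrocyte lineage, and its log2 ratios on arrays 1 to 8 were 0.034, -0.15, -0.093, -0.099, -0.21, -0.29, -0.16 and -0.20. Array 1 was just above 0 and the other 7 were below it within a narrow range. Its log2 fold change was -0.15 with a standard error of 0.050 and an adjusted *p* of 0.365 (unadjusted *p* = 0.0223, limma).

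Levels in each channel, as log2 intensity after normalisation, overlapped between RA and vehicle for all 9 genes. RA levels of *Opalin* ran from 10.97 to 12.16 with a median of 11.94, and vehicle levels from 11.27 to 12.33 with a median of 12.25. RA levels of *Ugt8* ran from 8.62 to 9.10 with a median of 8.84, and vehicle levels from 8.92 to 9.33 with a median of 9.07. RA levels of *Olig1* ran from 12.33 to 12.56 with a median of 12.45, and vehicle levels from 12.48 to 12.72 with a median of 12.59. Of the 8 RA values, 2 lay above the lowest vehicle value in *Ugt8* and in *Olig1*, against 6 in *Mbp* and *Mobp*, 7 in *Opalin*, *Mog*, *Cnp* and *Cldn11*, and 8 in *Mag*. For *Opalin* the lowest level in either channel was on array 5, with 10.97 in RA and 11.27 in vehicle.

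A second probe was present for 4 of the genes. The second probe of *Opalin*, matched to the same transcript, had a log2 fold change of -0.22 (standard error 0.050, unadjusted *p* = 0.00273 and adjusted *p* = 0.267 in limma) and was below 0 on all 8 arrays. That of *Mobp* had -0.14 (unadjusted *p* = 0.125 in limma), and 7 arrays were below 0. The second probe of *Mag* had -0.042, close to the -0.071 of the first. The *Mbp* probes disagreed. The dimmer one, matched to another *Mbp* transcript, had a log2 fold change of 0.044 (standard error 0.053, unadjusted *p* = 0.432 in limma) with 3 arrays below 0, so the lower level of *Mbp* was measured by the brighter probe alone.

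The 2 dye orders differed most for *Mbp*, with a mean log2 ratio of -0.067 when RA was in Cy5 and -0.44 when it was in Cy3. The unadjusted *p* of that difference was 0.0114 and its adjusted *p* 0.105 in limma. In 7 of the 9 genes the ratio was lower with RA in Cy5, as in *Mobp* (-0.43 against -0.12), *Mog* (-0.30 against -0.077) and *Mag* (-0.20 against 0.057). *Opalin* had -0.31 and -0.23, and *Olig1* -0.14 and -0.16. None of the 9 differed between dye orders at an adjusted *p* under 0.05 (0 in limma), beside 3.89% of all probes. *Mbp* and *Mag* had an unadjusted *p* under 0.05 in limma, which makes 2. Row 1 of the slide held arrays 1 to 4 and row 2 held arrays 5 to 8, each with 2 arrays per dye order. The tests of dye order and row took the 8 arrays as separate, though some may share RNA. Rats may also differ between the rows, so row and rat cannot be told apart. *Mobp* had a mean log2 ratio of -0.10 in row 1 and -0.45 in row 2, *Mog* -0.056 and -0.32, and *Mbp* -0.14 and -0.36. *Opalin* had -0.28 and -0.25. No gene of the 9 differed between rows at an adjusted *p* under 0.05 (0 in limma), beside 1.62% of all probes. With 9 genes, a count of 0 is near either share. *Mog*, *Mobp* and *Mag* had an unadjusted *p* under 0.05 for row in limma, which makes 3, the lowest being 0.0128 for *Mog*. The share of all probes at that unadjusted threshold was not counted for dye order or row.

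The median log2 ratio of the 9 genes lay below 0 on each array. It was lowest on array 8, at -0.39, followed by arrays 5 (-0.24), 6 (-0.23) and 1 (-0.21), and it was closest to 0 on array 4, at -0.025. On arrays 5 and 8 all 9 genes were below 0, and on array 7 it was 5 of them. The medians of all named genes lay between -0.0079 and 0.0077 on the 8 arrays. Across the 8 arrays the ratios of 28 of the 36 pairs of genes had a Pearson's r above 0, with a median of 0.41. The highest was that of *Mog* and *Mag*, at 0.92, and the lowest that of *Cldn11* and *Olig1*, at -0.59. The ratio of *Cldn11* went with that of *Opalin* (r = 0.81). That of *Mbp* was weakly related to *Mog* (r = 0.091) and *Mobp* (r = 0.097) as measured, and with each dye order centred on its own mean these values were 0.93 and 0.80. The 8 points of each pair come from the same arrays and rats, and arrays of a dye-swap may share RNA, so these correlations describe the arrays and carry no *p*. Pairs of other genes were not counted beside them.

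**Figure D2:**
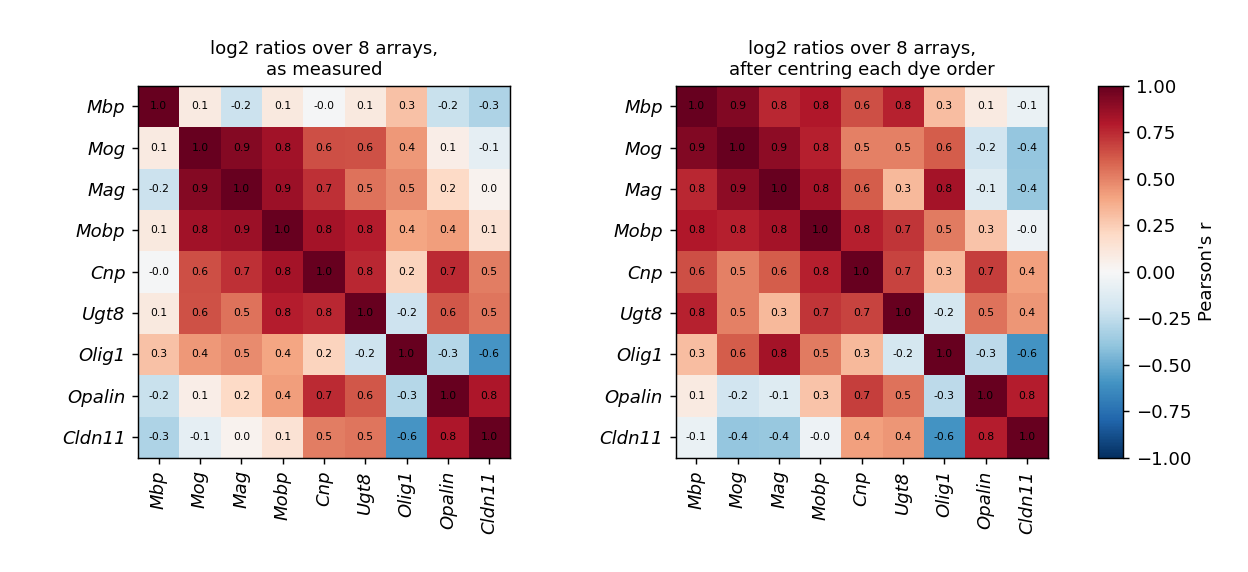
Pearson's r between the log2 ratios of each pair of the 9 genes over 8 arrays, as measured (left) and after each dye order was centred on its own mean (right), with colour from -1 to 1. *Mbp* stands apart from *Mog*, *Mag* and *Mobp* on the left and joins them on the right, while *Opalin* and *Cldn11* form a pair in both.

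Other genes of the sheath were taken from a list of 18, of which 16 had a named probe. This list and those below were also chosen with earlier results of these data known. Their median log2 fold change was -0.13, and 13 were below 0. Of them 3 fell at an unadjusted *p* under 0.01, beside 0.792% of named genes. *Tspan2*, a tetraspanin of myelin, had a log2 fold change of -0.29 (standard error 0.049, unadjusted *p* = 5.58e-04 in limma) and was below 0 on 8 arrays. *Gpr37*, a receptor of maturing oligodendrocytes, had -0.23 (unadjusted *p* = 0.00557), and *Ermn*, a cytoskeletal protein of the outer sheath, had -0.30 (unadjusted *p* = 0.00773). The log2 ratios of *Tspan2* on arrays 1 to 8 were -0.028, -0.36, -0.042, -0.47, -0.64, -0.050, -0.65 and -0.062. The 4 arrays with RA in Cy3 were at -0.36 or lower and those with RA in Cy5 at -0.028 to -0.062. Over the 8 arrays Pearson's r between the median of this list and that of the 9 genes was 0.91, a description of values that come from the same arrays.

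Of 9 genes for the synthesis and turnover of myelin lipids, 1 fell at an unadjusted *p* under 0.01 and their median log2 fold change was -0.013. This was *Gal3st1*, which adds sulphate to galactosylceramide, the product of *Ugt8*. It had a log2 fold change of -0.19 (standard error 0.050, unadjusted *p* = 0.00577 in limma) and was below 0 on 8 arrays. *Fa2h*, which hydroxylates the fatty acids of these lipids, had -0.15, and *Gltp*, a glycolipid transfer protein, had 0.20 and was above 0 on 8 arrays, without either passing that threshold. Among transcription factors of the lineage 6 of 10 had a named probe, with a median of -0.076, and 1 fell. *Olig2*, the partner of *Olig1*, had a log2 fold change of -0.19 (standard error 0.051, unadjusted *p* = 0.00617 in limma). Its log2 ratios on arrays 1 to 8 were -0.12, -0.42, -0.045, -0.39, -0.32, 0.068, -0.21 and -0.10. Array 6 was the only one above 0. *Sox8* had -0.14 (unadjusted *p* = 0.0155) and was below 0 on 8 arrays, and *Nkx6-2* had -0.13. *Sox10*, which marks the whole lineage, had -0.019 with a standard error of 0.048 (unadjusted *p* = 0.706). None of 9 genes of oligodendrocyte precursors passed (0 in limma at an unadjusted *p* under 0.01, and 0 at an unadjusted *p* under 0.05), and their median was -0.078. *Pdgfra*, the receptor that defines these precursors, had -0.11 (unadjusted *p* = 0.108), *C1ql1* -0.16 and *Neu4* -0.093. Of 10 further genes enriched in oligodendrocytes, 1 fell, *Plekhb1*, with a log2 fold change of -0.30 (unadjusted *p* = 0.00147) and 8 arrays below 0. *Car2*, the carbonic anhydrase of oligodendrocytes, had -0.27 (unadjusted *p* = 0.0131) and *Ndrg1* -0.19. Of these further genes 8 were below 0 and 2 above it, from -0.30 to 0.20, with a median of -0.15. The same share of named genes, 0.792%, is the background for each of these lists. Over the 8 arrays, Pearson's r with the median of the 9 genes was lower than for the other sheath genes. It was 0.33 for the lipid genes, -0.17 for the factors, 0.22 for the precursors and 0.52 for the further enriched genes.

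**Figure D3:**
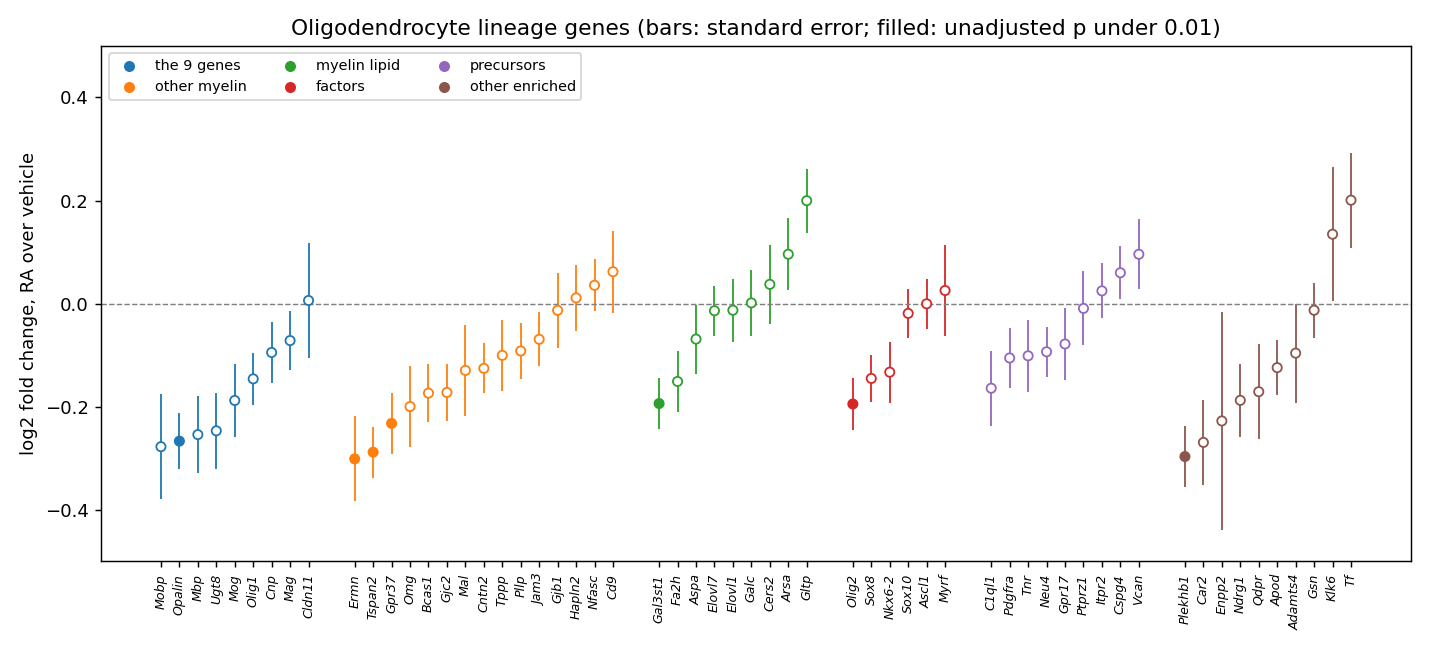
Log2 fold change of RA over vehicle with its standard error for the 9 genes and for 5 further lists of the oligodendrocyte lineage (1 myelin gene not shown), filled where the unadjusted p was under 0.01. Filled points are found in each list but that of the precursors, and every filled point lies below 0.

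Markers of other cells of the tissue also moved. Of 17 hypothalamic neuropeptide genes, 16 were well above background in both channels on all 8 arrays. Genes of Schwann cells, which make myelin outside the brain, were near background where they are most particular. *Prx* was well above background in no RA or vehicle channel, and *Egr2* in 2 RA and 0 vehicle channels. None of their 5 measured genes passed the threshold (0 in limma, while 2 had an unadjusted *p* under 0.05). Of 11 genes of reactive astrocytes 9 rose, led by *Cp*, *Hspb1* and *Timp1* with log2 fold changes of 2.60, 2.21 and 2.19. Of 12 microglial genes 6 rose, with *C1qb* at 1.03, *C1qc* at 1.04 and *C1qa* at 0.83, and 1 fell, *Tmem119*, at -0.52. Among named genes 3.52% were higher and 0.792% lower at that threshold. In row 1 the median of the reactive astrocyte list was 0.52 to 1.02, and in row 2 it was 1.76 to 2.67. That of the microglial list was 0.20 to 0.38 in row 1 and 0.80 to 0.95 in row 2. The median of the 9 myelin genes was -0.21 to -0.025 in row 1 and -0.39 to -0.072 in row 2. Row and rat cannot be told apart in these values. Of 10 neuronal genes 2 fell, the neurofilament genes *Nefm* (-0.39) and *Nefl* (-0.30), and the list had a median log2 fold change of -0.13. Of 10 astrocyte genes 2 fell, *Slc4a4* (-0.28) and *Gja1* (-0.22), and the median was -0.18. So the median of the 9 genes (-0.19) lay near those of neurones and astrocytes. The part of these other cells in the ratios of the myelin genes was not tested.

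The 11 choroid plexus genes had medians of -1.38 on array 6 and -1.57 on array 7, and of 0.074 to 0.49 on the other arrays. Without arrays 6 and 7, *Opalin* had a log2 fold change of -0.30, *Mobp* -0.28, *Mbp* -0.25, *Ugt8* -0.29, *Mog* -0.16 and *Olig1* -0.12, and *Cldn11*, high on both of these arrays, had -0.15. The neuropeptide genes were mixed on arrays 5 and 8, where the 9 genes were lowest. Several were low there, others such as *Vip* and *Crh* were above 0, and the median of the peptide list was -0.34 and -0.26. *Cartpt* (-0.42) was its only gene to pass the threshold, beside 0.792% of named genes that were lower at it, and *Avp* had 0.65. Without arrays 8 and 5 the log2 fold change was -0.24 for *Opalin*, -0.16 for *Mobp*, -0.18 for *Mbp*, -0.17 for *Ugt8*, -0.13 for *Mog* and for *Olig1*, and 3 of the 9 genes in place of 6 were lower at an unadjusted *p* under 0.05. None of 8 genes of tanycytes and ependyma and none of 8 of endothelium passed an unadjusted *p* of 0.01 (0 each in limma, while 0 and 2 had an unadjusted *p* under 0.05).

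**Figure D4:**
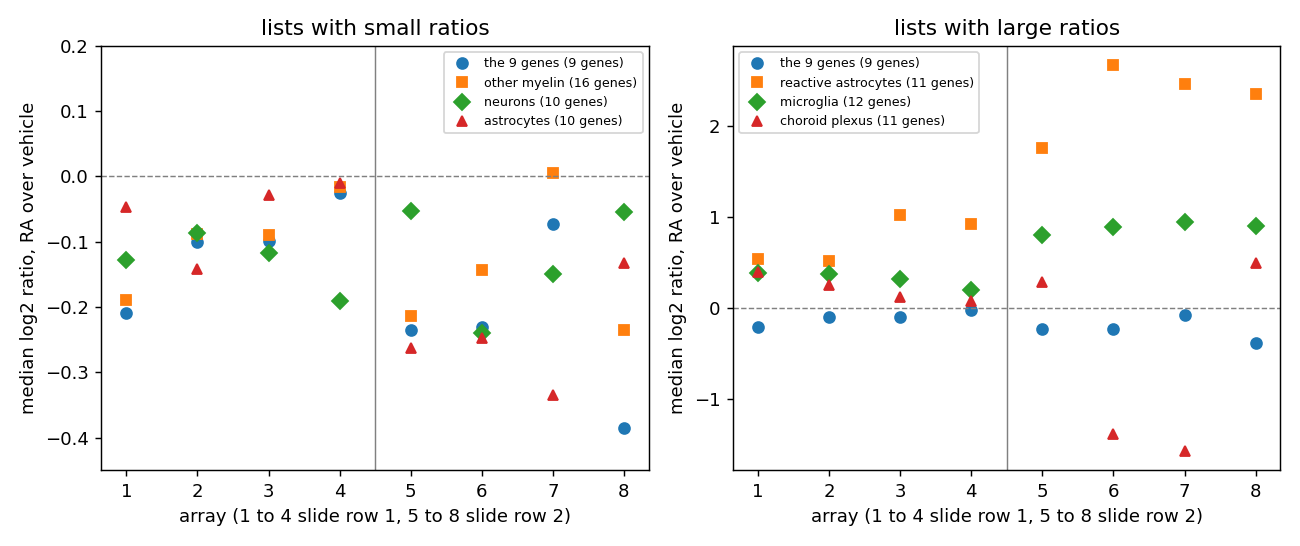
Median log2 ratio of RA over vehicle on each array for the 9 genes and 3 other lists with small ratios (left) and 3 with large ratios (right), the vertical line dividing the rows of the slide. The 9 genes and the other myelin genes lie close together on arrays 1 to 5, reactive astrocyte and microglial genes are higher on arrays 5 to 8, and choroid plexus genes are far below 0 on arrays 6 and 7.

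Among 10868 other named genes well above background, the 5 whose log2 ratios were most like the mean of the 9 genes over the 8 arrays were *Dnajb2* (r = 0.98), *Csrp1* (r = 0.97), *Dcn* (r = 0.96), *Nudt18* (r = 0.96) and *Lypd3* (r = 0.95). Those least like it were *Prkch* (r = -0.98), *Gtpbp3* (r = -0.98), *Kcnk16* (r = -0.98), *Kcnab1* (r = -0.97) and *Impa2* (r = -0.97). The log2 ratios of *Dnajb2* on arrays 1 to 8 were -0.25, 0.044, 0.024, 0.12, -0.21, -0.087, 0.069 and -0.39, and those of *Prkch* were 0.30, -0.16, -0.13, -0.36, 0.66, -0.027, -0.39 and 0.76. Both moved between arrays without a shift common to them, the unadjusted *p* in limma being 0.25 for *Dnajb2* and 0.608 for *Prkch*. These genes were picked from a great number by their likeness over 8 points, so their r is a description only.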

How the data were processed

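Hypothalamic RNA of 4 RA and 4 vehicle rats was measured on 8 two-colour Agilent arrays (design 028279). The authors deposited Cy3 and Cy5 intensity values per spot together with Agilent's log10 ratio of Cy5 over Cy3, and a table of loess-normalised log2 ratios for the series. The methods name limma, loess, averaging of identical probes, dye-swaps as a block and an unadjusted *p* under 0.01.

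In R 4.3.3 with limma 3.58.1, median signals were corrected by normexp (offset 50) on all 62976 spots. Control spots were dropped, outlier spots (0.913% to 2.42% of an array) were removed, loess was applied within arrays and spots of a probe were averaged, which gave 30367 probes. Agilent's mark for signals well above background held for 57.4% to 74.6% of them in RA and 61.2% to 74.5% in vehicle, being required for at least 0.5 of a probe's spots. Ratios were turned to RA over vehicle, and levels per channel were scaled by Aquantile. Names came from RefSeq accessions of GRCr8 for 18006 probes (59.3%), and the brightest of several probes was taken (2607 genes). Each probe was tested by an intercept in limma on the means of 4 couples of arrays, 1 of each dye order. Since the couples that share RNA are not given, the largest *p* over all 24 couplings was kept, with Benjamini-Hochberg adjustment over all probes. Dye order and slide row were tested on 8 arrays as fixed terms. The number of arrays limits the precision, and *p* values measure the spread between them, part of which may be technical. The test was checked on simulated data.

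The members and the gene lists were chosen with earlier results of these data known. The text names the 9 genes, *Sox10*, *Olig2*, *Pdgfra*, up to 3 genes of the smallest *p* per list and the 5 genes most and least like the 9. *Egr2* and *Prx* are named beyond this rule for their signal, and *Enpp2* stands in 2 lists. List genes without a named probe were not used, and some genes that the rule names are not reported here. Alternatives were other background corrections, Agilent's ratio, the deposited values, scaling between arrays, bright probes only, outlier spots kept, other models of the dye-swap, single couplings, each dye order, each slide row, a variance trend, the mean over probes, and each of 16 couples of arrays left out. The count at an unadjusted *p* under 0.05 was added after the data had been seen.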

Additional observations from a re-analysis of the deposited data

Results flagged for a closer look

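In the 4 arrays of each dye order, an array far from the others was looked for by Dixon's test in 20 groups of values, in which chance gives about 1. It was found once. The log2 ratio of *Cldn11* was 0.39 on array 6, against -0.33 to -0.23 on the other arrays with RA in Cy5. It was 0.54 on array 7, which carried RA in Cy3. The choroid plexus genes were low on the same arrays, and without both of them *Cldn11* had a log2 fold change of -0.15. Their part in this value was not tested.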

How the results depend on the processing

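The median log2 fold change of the 9 genes was below 0 in all 34 alternatives, from -0.26 to -0.10. *Opalin* was below 0 in 35 of 35 and had a limma *p* under 0.01, unadjusted, in 32, among them all 16 fits with a couple of arrays left out. The exceptions were plain background subtraction (0.0107), RA in Cy3 only (0.0105) and slide row 2 only (0.0275). Couples were left out in every combination, so some of the 16 fits may keep 1 array of an RNA sample. Without arrays 1 and 2, 3 and 4, 6 and 7, or 8 and 5, the *p* of *Opalin* in limma was 0.0058, 0.0057, 0.0015 and 0.0088. *Cldn11* was below 0 in 11 of 35, and *Mag* was above 0 with RA in Cy3 only (0.057) and in slide row 1 only (0.018). At an unadjusted *p* under 0.01, 1 of the 9 genes was lower. That count was 0 with plain subtraction, 2 with a variance trend, 3 with a random block and a dye term, 3 in slide row 2, 4 with RA in Cy5 only, and 6 with 8 independent arrays, in the coupling with the most calls, and with slide row and dye as fixed terms. With a couple of arrays left out it was 1 to 5, the highest without arrays 3 and 4. At an unadjusted *p* under 0.05 the count was 6, and it was 3 with plain subtraction, with Agilent's ratio and with RA in Cy3 only, and 2 in slide row 1. With a couple left out it was 3 to 6, and 3 without arrays 1 and 2, 6 and 2, 6 and 5, 8 and 2, 8 and 5, or 8 and 7. The 988 probes past an unadjusted *p* of 0.01 were 237 with plain subtraction, 330 with Agilent's ratio, 1707 with a random block, 2481 with independent arrays, 3142 in the coupling with the most calls, 2161 with RA in Cy5 only, 2317 with RA in Cy3 only, 3111 with slide row and dye as fixed terms, and 455 to 1111 with a couple left out, the lowest without arrays 8 and 5. The cause was not tested. Each array already pairs an RA with a vehicle RNA, and the main test couples arrays across the dye orders. Replicate numbers are not shared between the dye orders, so they single out none of the 24 couplings. *Gnrh1* had 1.41 and 1.19 on arrays 1 and 2, and *Trem2* -1.16 and -1.44 on arrays 3 and 4. *Pomc* had -1.11 and -1.08 on arrays 5 and 8, and *Ttr* -4.48 and -5.11 on arrays 6 and 7. Arrays of such a couple may share RNA and not be separate replicates, which was not tested. With these couples 1081 probes passed an unadjusted *p* of 0.01 in limma, and 1 of the 9 genes was lower at it and 6 at 0.05.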
